A study of Mus musculus with 5 samples.

Results

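Transcripts that mark the lining of blood and lymphatic vessels were followed in whole small intestine of 5 mice. The 35 genes were listed by symbol, and 28 of them had a row among the 19198 genes of the count table. They were sorted by textbook use into 12 pan-endothelial genes, 16 genes used mainly for blood vessels and 7 used mainly for lymphatic vessels, of which 8, 14 and 6 had rows. No row was found for Sox18, Erg, Icam2, Rasip1, Robo4, Sox17 and Ccl21a, and the lowest row total in the table was 10 counts. The Cre-negative group held 3 mAchR4 fl/fl mice, in which both copies of the muscarinic acetylcholine receptor 4 gene, Chrm4, are flanked by loxP sites. Both Cre-positive animals carried these floxed alleles together with Math1Cre*PR, a Cre that needs a progesterone receptor ligand to act. It is under the control of Math1 (Atoh1), the transcription factor of the secretory epithelial lineage, and the Cre-positive group numbers 2 mice. The groups were littermates, and every mouse of both received the ligand RU486 orally (gavage, 10 mg/kg each day, 4 days). No Cre-positive mice with unfloxed Chrm4 were analysed here, so effects of the active Cre and of targeting Chrm4 cannot be told apart. The labels used here give neither the age of the mice nor the stretch of intestine, and each library carries its own mouse number.

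Libraries held 4681119 to 6618204 estimated counts. Levels are CPM, counts scaled to library size after TMM correction for library composition, and 1 count was worth 0.155 to 0.240 CPM. Where 5 values follow, they stand in the order Cre-negative 1, 2 and 3 against Cre-positive 1 and 2. Chrm4 itself had 4, 20 and 4 counts against 13 and 5. The labels do not say which part of Chrm4 is floxed and the Cre acts only in the Math1 lineage, so these counts do not check the genotype. The 9 epithelial genes of a fixed list, the main cells of this tissue, summed to 4486, 4605 and 4940 CPM against 5037 and 6235 CPM. These sums did not overlap between the groups. Of the 9 genes, 4 did not overlap, against 18.0% of all genes tested, and the edgeR test used below called 0. Cre-positive 1 and Cre-negative 1 stood apart in markers of other cell types. All 10 leukocyte genes of a fixed list were highest in Cre-positive 1, and all 10 smooth muscle, 7 of 7 pericyte, 5 of 5 mesothelial and 10 of 11 fibroblast genes were highest in Cre-negative 1.

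Endothelial cells line all vessels and hold together through adherens junctions built on VE-cadherin. Their growth and stability are set by secreted VEGFs and angiopoietins acting on tyrosine kinase receptors, and ETS and SOX family transcription factors keep the endothelial program on. In the intestinal villus a capillary net under the epithelium carries off sugars and amino acids, and a central lymphatic vessel, the lacteal, takes up dietary fat. Lacteals differ from capillaries in their use of the transcription factor Prox1 and the VEGF-C receptor Flt4.

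The defining endothelial genes were near the detection limit in all 5 libraries. The 28 genes summed to 676, 524 and 335 counts against 680 and 396, which is 0.00587% to 0.0144% of a library. Of the 140 values (28 genes in 5 libraries), 78 were under 10 counts (55.7%), and 2 were 0. The median total over all libraries was 42.5 counts for these genes and 165 counts for all genes of the table, and 23 of the 28 lay below that value. In bulk tissue, fewer cells of a type and less RNA per cell cannot be told apart. Counting error alone is therefore large for single genes. For Kdr, the main VEGF-A receptor, 3 counts in Cre-negative 1 gave 0.719 CPM with an exact Poisson 95% interval of 0.148 to 2.10 CPM.

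**Figure D1:**
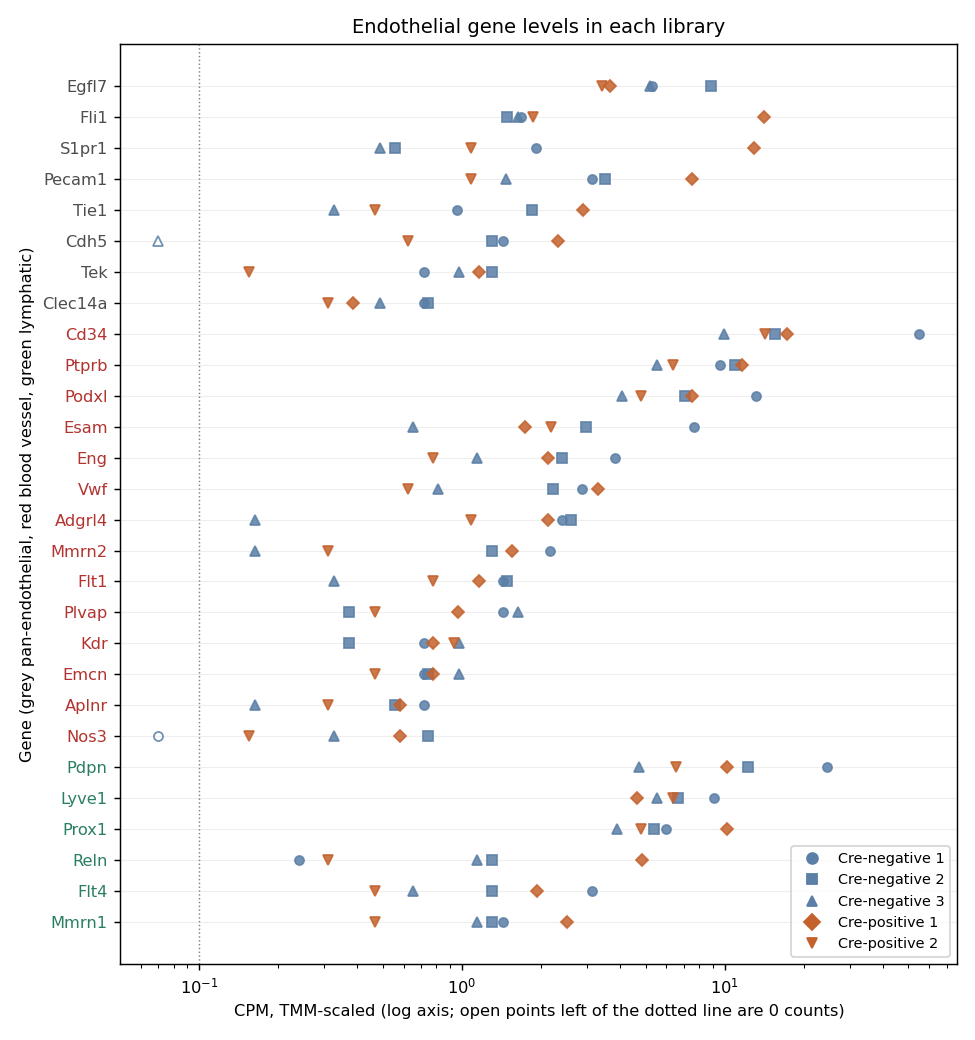
CPM of each gene (rows, coloured by class) in each library (blue Cre-negative, orange Cre-positive) on a log axis; open points left of the dotted line are libraries with 0 counts. Most genes lie between 0.1 and 10 CPM, Fli1 and S1pr1 stand far to the right in Cre-positive 1, and Cd34 does so in Cre-negative 1.

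Levels of different genes were compared per kilobase of exon, with exon lengths from GENCODE M21. Pdpn was highest, at 6.40 CPM per kilobase averaged over the 5 libraries. It encodes podoplanin, a mucin-like membrane protein of lymphatic endothelium that stromal reticular cells and mesothelium also carry. Cd34, a sialomucin of capillary endothelium that intestinal fibroblasts share, followed at 3.08 CPM per kilobase. Lyve1, the hyaluronan receptor of lymphatic vessels and of some tissue macrophages, had 2.22 CPM per kilobase. These 3 were the only genes above the middle of the table, at percentiles 75.5, 59.8 and 52.1 of the 18923 genes with a length. The receptors and junction genes that define endothelium stood far lower. Pecam1 had 0.537, Cdh5 0.270, Tie1 0.265 and Kdr 0.0836 CPM per kilobase, at percentiles 20.6, 10.2, 9.92 and 1.14. The median percentile was 15.4 for the pan-endothelial, 12.3 for the blood vessel and 17.4 for the lymphatic genes. Each gene overlapped its neighbours in this order over the 5 libraries. The share of Pdpn, Cd34 and Lyve1 RNA that came from other cells was not tested.

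**Figure D2:**
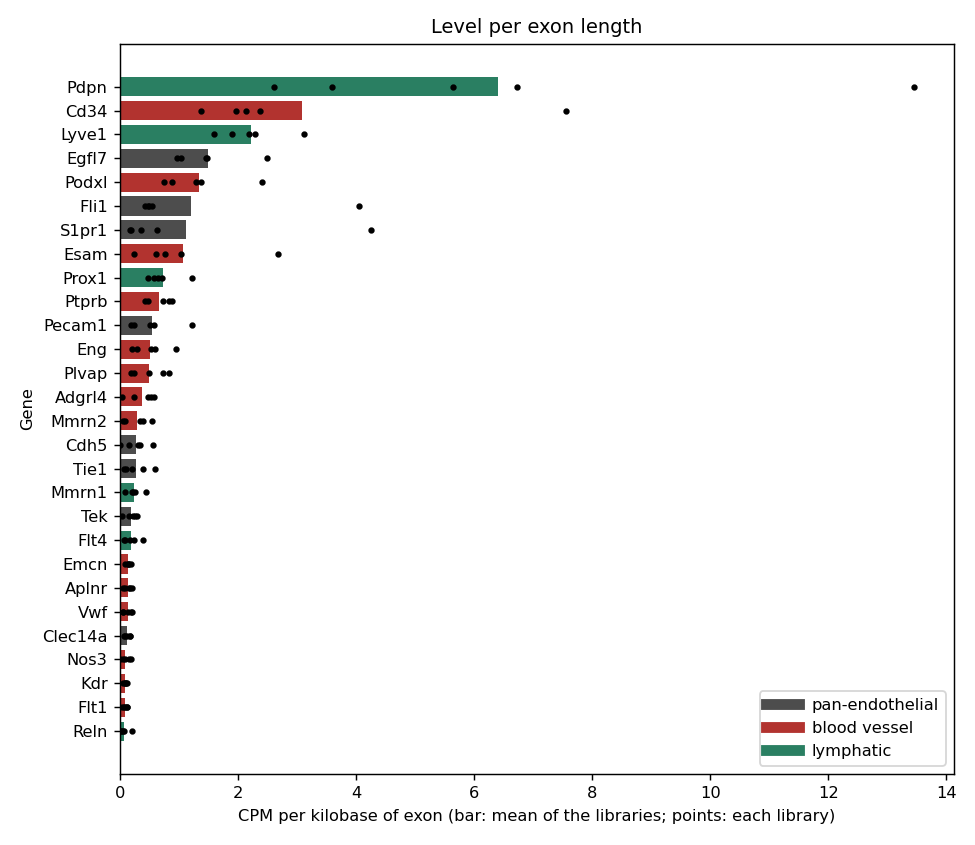
Mean CPM per kilobase of exon of the 28 genes (bars, coloured by class) with each library as a point, on a linear axis from 0. Pdpn, Cd34 and Lyve1 lead, and for Pdpn and Cd34 the point farthest right is Cre-negative 1.

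Promoter sequence is shown for the genes on which the values below turn. Egfl7 separated the groups, Cd34 and Pdpn led the levels, and Reln was high in 1 library. Sequences are the bases before a RefSeq transcript start (GRCm38.p6), given on the gene's strand, with bases in annotated UTRs left out. Capitals mark the letters CAGGAAG or CCGGAAG, the cores of binding sites for ETS factors such as Erg and Fli1, found on either strand.
Egfl7 (chr2:26583615-26583863, plus strand, 1 of 3 starts): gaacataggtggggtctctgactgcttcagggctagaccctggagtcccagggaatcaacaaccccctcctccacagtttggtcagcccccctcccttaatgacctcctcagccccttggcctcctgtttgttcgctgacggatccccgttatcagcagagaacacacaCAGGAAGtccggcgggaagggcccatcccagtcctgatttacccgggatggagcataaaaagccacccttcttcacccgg
Cd34 (chr1:194938571-194938818, plus strand): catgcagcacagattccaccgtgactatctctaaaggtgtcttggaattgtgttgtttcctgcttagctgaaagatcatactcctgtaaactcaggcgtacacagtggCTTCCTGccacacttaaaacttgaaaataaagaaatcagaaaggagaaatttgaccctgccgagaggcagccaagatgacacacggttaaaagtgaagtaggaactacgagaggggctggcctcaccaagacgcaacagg
Pdpn (chr4:143299565-143299814, minus strand): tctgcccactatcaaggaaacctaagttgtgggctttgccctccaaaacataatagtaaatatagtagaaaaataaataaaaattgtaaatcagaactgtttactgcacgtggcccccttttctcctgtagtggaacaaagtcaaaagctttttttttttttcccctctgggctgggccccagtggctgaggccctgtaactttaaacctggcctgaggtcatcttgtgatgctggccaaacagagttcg
Reln (chr5:22344706-22344955, minus strand): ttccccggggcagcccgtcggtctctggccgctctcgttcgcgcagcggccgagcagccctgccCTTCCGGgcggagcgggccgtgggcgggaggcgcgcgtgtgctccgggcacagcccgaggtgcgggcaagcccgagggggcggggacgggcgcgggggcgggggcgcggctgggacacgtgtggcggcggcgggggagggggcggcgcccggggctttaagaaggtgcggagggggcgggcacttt
The match lies 81 bases before this Egfl7 start, 142 bases before that of Cd34 and 186 bases before that of Reln, and the Pdpn window holds none. Of the Egfl7 windows not shown, 26580833-26581055 holds CAGGAAG on both strands and 26586386-26586629 holds no match. Egfl7 therefore counts more than once in the share of CAGGAAG below. RefSeq windows were at hand for 19 of the 35 genes, 24 windows in all. CAGGAAG or its reverse complement CTTCCTG was in 7 of the 24 windows of up to 250 bases (29.2%), from 6 genes, Cd34, Egfl7, Emcn, Erg, Rasip1 and Robo4, against 10.8% of all 32851 windows. CCGGAAG was in 1 of 24 (Reln) against 6.91% of all windows. AACAAT, letters of SOX factor sites, was in 4 of 24 (16.7%), those of Emcn, Erg, Mmrn1 and Tek, against 9.42%. A match of letters describes the sequence and is no evidence that a factor binds there.

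Among the pan-endothelial junction genes, Pecam1, an adhesion molecule of endothelial cell borders that leukocytes and platelets also carry, had 3.12, 3.52 and 1.47 CPM against 7.55 and 1.09 CPM. The groups overlapped, with the highest and the lowest value both in Cre-positive mice. Cdh5, which encodes VE-cadherin, had 6, 7 and 0 counts against 12 and 4. The 0 in Cre-negative 3 allows up to 0.489 CPM (3 counts, the limit used for a count of 0, for counting error only), so VE-cadherin RNA was not detectable there at this depth. Clec14a, an endothelial C-type lectin, had 3, 4 and 3 counts against 2 and 2, and its CPM of 0.489 to 0.741 and of 0.311 to 0.387 did not overlap. A difference of 1 or 2 counts lies within counting error.

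The angiopoietin receptor genes were as sparse. Tek, the receptor of angiopoietins, had 3, 7 and 6 counts against 6 and 1. Tie1, its partner receptor, had 4, 10 and 2 counts against 15 and 3, or 0.958, 1.85 and 0.326 CPM against 2.90 and 0.466 CPM. In both genes the 2 Cre-positive libraries spanned most of the range. S1pr1, the sphingosine-1-phosphate receptor that stabilises vessels and lets lymphocytes leave lymphoid organs, had 8, 3 and 3 counts against 67 and 7. Fli1, an ETS factor of endothelium and of blood cells, had 7, 8 and 10 counts against 73 and 12, or 1.48 to 1.68 CPM against 14.1 and 1.87 CPM. Its groups did not overlap, but Cre-positive 2 lay only just above the Cre-negative mice.

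Egfl7, an angiogenic factor secreted by endothelium, was the clearest separation among the pan-endothelial genes. It had 5.27, 8.89 and 5.21 CPM against 3.68 and 3.42 CPM (means 6.46 ± 2.11, SD, n = 3, and 3.55 ± 0.182, SD, n = 2). All Cre-negative mice lay above both Cre-positive mice. The log2 fold change, Cre-positive relative to Cre-negative, was -0.86 ± 0.41 (SE) and did not pass edgeR's quasi-likelihood test with Benjamini-Hochberg adjustment over all genes (adjusted p = 0.977, unadjusted p = 0.0729). Among the 14 endothelial genes tested it alone did not overlap, against 18.0% of all genes tested (7.89% higher and 10.2% lower). Over all 28 genes, tested or not, 3 did not overlap (Egfl7, Clec14a and Fli1), against 18.4% of the table. Egfl7 (chromosome 2, 26580014 to 26593120, plus strand, GRCm38 with GENCODE M21) shares exon bases with Gm20532 and Mir126a on its own strand and with Agpat2 and Mir126b on the other, so reads of these genes may be mixed.

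Blood vessel receptors and adhesion genes with fewest counts showed no group difference that such counts could resolve. Kdr had 3, 2 and 6 counts against 4 and 6, and Flt1, a high-affinity decoy for VEGF-A, had 6, 8 and 2 against 6 and 5. Aplnr, the apelin receptor, had 3, 3 and 1 against 3 and 2, and Nos3, endothelial nitric oxide synthase, had 0, 4 and 2 against 3 and 1. Emcn, the capillary sialomucin endomucin, had 3, 4 and 6 against 4 and 3, and Plvap, the diaphragm protein of fenestrated capillaries, had 6, 2 and 10 against 5 and 3. The groups overlapped in each of these 6 genes. With 2 to 6 counts for Kdr, 2 to 8 for Flt1 and 2 to 10 for Plvap, these libraries cannot show whether the levels were steady. Mmrn2, a matrix protein of vessel walls, had 9, 7 and 1 counts against 8 and 2, with the low values in Cre-negative 3 and Cre-positive 2.

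Cd34, Podxl, Esam and Eng, which are among the better counted blood vessel genes, were highest in Cre-negative 1. Cd34 had 55.1, 15.6 and 9.94 CPM against 17.2 and 14.3 CPM. Cre-negative 1 alone stood above the rest, 3.20 times the next library, and the remaining 4 libraries overlapped. Its counts were not whole in 2 libraries, and its exons overlap Gm16897 on the opposite strand. Podxl, an anti-adhesive sialomucin of endothelium and mesothelium, had 13.2, 7.04 and 4.07 CPM against 7.55 and 4.82 CPM. Esam, an endothelial and platelet junction molecule, had 7.67, 2.96 and 0.652 CPM against 1.74 and 2.18 CPM. Eng, a co-receptor for BMP and TGF-beta ligands, had 3.83, 2.41 and 1.14 CPM against 2.13 and 0.777 CPM. In each of these 4 genes Cre-negative 3 lay below Cre-negative 2 and Cre-negative 1 above it, and the Cre-positive mice fell inside that span except for Eng in Cre-positive 2. Ptprb, the phosphatase that restrains Tek, was steadier at 9.58, 10.9 and 5.54 CPM against 11.6 and 6.37 CPM. Vwf, the clotting factor stored by endothelium, had 2.88, 2.22 and 0.815 CPM against 3.29 and 0.622 CPM. Adgrl4, an adhesion receptor of growing vessels, had 2.40, 2.59 and 0.163 CPM against 2.13 and 1.09 CPM. For Vwf the Cre-positive mice held both the highest and the lowest value, and for Adgrl4 the Cre-positive values lay within the Cre-negative range.

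Lymphatic genes did not separate the groups either. Lyve1 had the smallest ratio of highest to lowest value among them, with 9.11, 6.67 and 5.54 CPM against 4.64 and 6.37 CPM. Its lowest value was in Cre-positive 1, where several pan-endothelial genes were highest. The 8 macrophage genes summed to 79.6, 32.6 and 21.8 CPM against 67.1 and 20.5 CPM, and their part in Lyve1 was not tested. Prox1, the regulator of lymphatic identity that is also known from enteroendocrine cells, had 5.99, 5.37 and 3.91 CPM against 10.3 and 4.82 CPM. The enteroendocrine genes of a fixed list summed to 21.6, 15.0 and 30.0 CPM against 67.9 and 36.8 CPM, and their part in Prox1 was not tested. Pdpn had 24.4, 12.2 and 4.72 CPM against 10.3 and 6.53 CPM, so the Cre-negative mice alone spanned its whole range. Flt4 had 3.12, 1.30 and 0.652 CPM against 1.94 and 0.466 CPM, again with overlap. Mmrn1, a secreted protein of lymphatic endothelium and platelets, had 6, 7 and 7 counts against 13 and 3. Reln, the matrix glycoprotein reelin that collecting lymphatics secrete, had 1, 7 and 7 counts against 25 and 2. For both, Cre-positive 1 was highest and Cre-positive 2 was at or near the lowest value.

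No endothelial gene passed the test between Cre-positive and Cre-negative intestine. A filter on low counts left 14 of the 28 genes, 3 pan-endothelial, 7 blood vessel and 4 lymphatic. Of these, edgeR called 0 higher and 0 lower at an adjusted p of 0.05, and 0% of the 14352 genes tested were called higher and 0% lower. At an unadjusted p under 0.05 there were 0 of the 14, against 3.38% of genes tested (1.60% higher and 1.78% lower). DESeq2 called 0 of the 14, with 0.0836% of genes called higher and 0.0488% lower, and limma-voom called 0, with 0% of genes called in either direction. The log2 fold changes ran from -0.88 ± 0.90 for Esam to 0.66 ± 0.79 for Pecam1 (SE). Their median was -0.36, with 4 positive and 10 negative, beside a median of -0.04 and 54.5% negative over all genes tested. By class the median was 0.65 over the 3 pan-endothelial, -0.38 over the 7 blood vessel and -0.41 over the 4 lymphatic genes. With no filter the medians were 0.70 over all 8, -0.20 over all 14 and -0.05 over all 6 genes with rows, and limma-voom gave 0.11 for the 3 pan-endothelial genes. To leave out mice without changing the genes, the same 14 were followed in the fit without a filter, where the class medians were 0.69, -0.33 and -0.37. The pan-endothelial median was then -1.08 without Cre-positive 1 and 1.51 without Cre-positive 2. Without Cre-negative 1 the blood vessel and lymphatic medians were 0.17 and 0.15, and without Cre-positive 2 both were -0.03. Each class median thus changed sign when 1 mouse was left out. The standard errors of 0.38 to 0.97 show how wide a change these counts leave undecided.

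**Figure D3:**
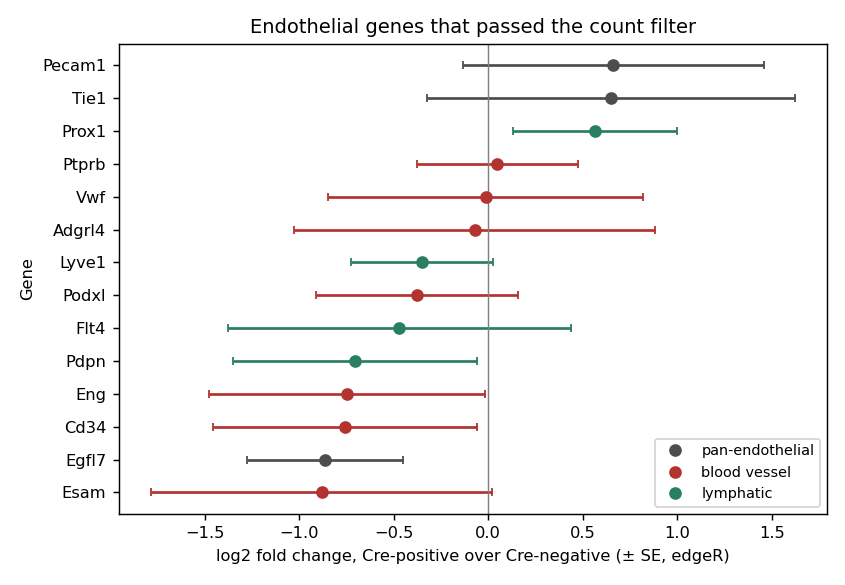
Difference between Cre-positive and Cre-negative mice as log2 fold change with its SE (edgeR quasi-likelihood fit) for the 14 endothelial genes that passed the filter, coloured by class. Of the lymphatic genes Prox1 lies above 0 and Lyve1, Flt4 and Pdpn below it, and none passed the test over all genes.

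The high pan-endothelial values of the Cre-positive group were those of Cre-positive 1. Summed over the 8 pan-endothelial genes, the level was 15.8, 19.6 and 10.6 CPM against 45.1 and 9.02 CPM. Cre-positive 2 lay below every Cre-negative mouse and Cre-positive 1 above them. Fli1 and S1pr1 led the sum in Cre-positive 1, at 14.1 and 13.0 CPM. These 2 genes were then taken out because they were so high there, so a lower value of Cre-positive 1 follows from the choice. Without them the mean log2 CPM (prior count 2) was 0.96, 1.32 and 0.26 against 1.39 and 0.11. Cre-positive 1 then lay just above Cre-negative 2. Cre-positive 1 held the highest value for 5 of the 8 pan-endothelial genes (Pecam1, Cdh5, Tie1, Fli1 and S1pr1). Of the 14 endothelial genes tested 5 were highest in Cre-positive 1, against 25.3% of all genes tested. Fli1 and S1pr1 were there 7.57 and 6.76 times the next library, Reln 3.73 times, Pecam1 2.14 times, Cdh5 1.62 times and Tie1 1.57 times. In an edgeR fit without a filter, the log2 fold change was 2.33 ± 0.77 for Fli1, 2.91 ± 1.03 for S1pr1 and 1.46 ± 1.05 for Reln. The unadjusted p of that edgeR fit was 0.0165, 0.0248 and 0.202, and the adjusted p was 0.982 for each. Without Cre-positive 1 the fold changes became 0.26, 0.25 and -1.47. Each of these genes was highest in that library, so a fall without it follows from the choice of genes. Without Cre-positive 2 Fli1 had 3.17, in a fit without a filter that assumes the lone Cre-positive library varies like the others. In Cre-positive 1 the 10 leukocyte genes summed to 390 CPM, against 31.0 to 63.5 CPM in Cre-negative mice and 33.4 CPM in Cre-positive 2. Among them Cd79a, a subunit of the B cell receptor, had 9.29 CPM there and was at 0 in the other 4 libraries. Cxcl13, the chemokine of B cell follicles, had 49.5 CPM there and 0.240 to 2.80 CPM elsewhere. The part of leukocytes in these endothelial values was not tested.

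High values of several endothelial genes and of stromal, muscle and blood cell markers occurred together in Cre-negative 1. That library was highest for 6 of the 14 blood vessel and 3 of the 6 lymphatic genes, and for 0 of the 8 pan-endothelial genes. Of the 14 endothelial genes tested 7 were highest in Cre-negative 1, against 26.2% of all genes tested. The blood vessel genes summed to 101.8, 49.3 and 26.9 CPM against 52.1 and 33.6 CPM. Without Cd34, which made up 42.5% of this sum, the values were 46.7, 33.7 and 16.9 CPM against 34.8 and 19.3 CPM, in the same order of libraries within each group. The lymphatic genes summed to 44.3, 28.2 and 17.1 CPM against 34.4 and 19.0 CPM. In Cre-negative 1 the 5 mesothelial genes summed to 268 CPM, against 49.5 and 111 CPM in the other Cre-negative mice and 80.7 and 83.5 CPM in the Cre-positive mice. The 11 fibroblast genes summed to 1095 CPM there and to 386 to 506 CPM elsewhere, and the 10 smooth muscle genes to 3898 CPM and to 1275 to 1963 CPM elsewhere. The 7 pericyte genes summed to 792, 432 and 278 CPM against 227 and 232 CPM, so both Cre-positive mice lay below every Cre-negative mouse. For 3 of these 7 genes the groups did not overlap, against 18.0% of all genes tested. None of the 7 passed the edgeR test over all genes (lowest adjusted p = 0.977). Between the Cre-positive mice the blood vessel, lymphatic and fibroblast sums were higher in Cre-positive 1 (fibroblast 506 and 442 CPM). The smooth muscle (1275 and 1544.5 CPM), pericyte (227 and 232 CPM) and mesothelial sums were higher in Cre-positive 2. No mesothelial, fibroblast, smooth muscle or pericyte gene with a row was at 0 in any library. The 8 platelet and red cell genes summed to 49.6 CPM in Cre-negative 1 and to 9.12 to 13.3 CPM elsewhere, with 6 of 8 highest there. Of these, the platelet gene Pf4 was at 0 in Cre-negative 2 and the red cell gene Hba-a1 in Cre-negative 2 and 3 and Cre-positive 1. Without Cre-negative 1 the log2 fold changes of Cd34, Podxl, Esam and Pdpn turned from -0.76, -0.38, -0.88 and -0.70 to 0.33, 0.18, 0.17 and 0.01, and that of Eng went from -0.75 to -0.28. Each of these genes was highest in Cre-negative 1, so a rise without that library follows from the choice of genes. The part of stromal, mesothelial, muscle and blood cells in these values was not tested.

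**Figure D4:**
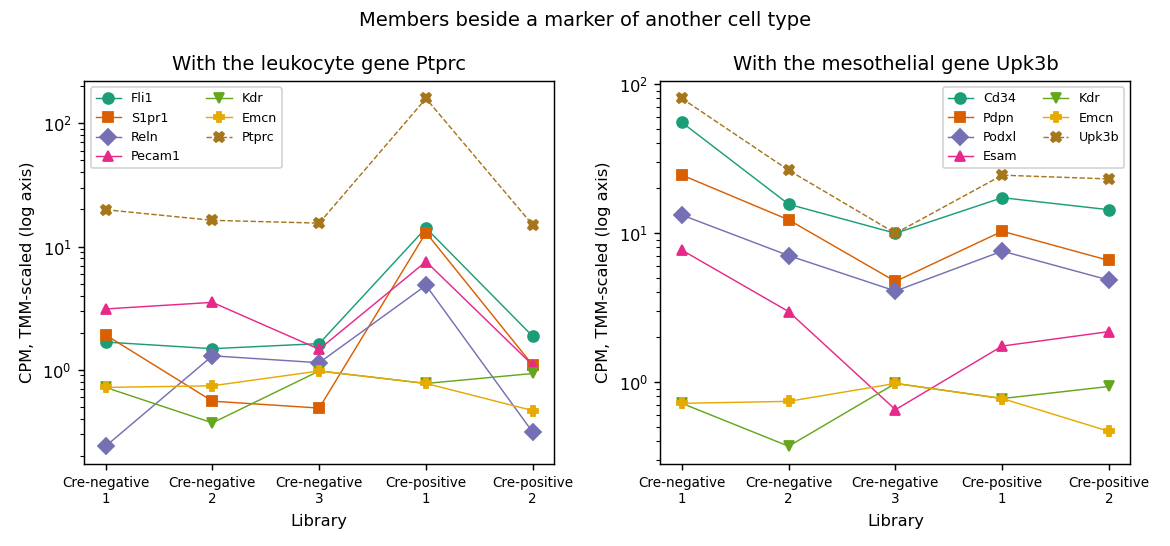
CPM by library on a log axis for genes high in Cre-positive 1 beside the leukocyte gene Ptprc (left) and for genes high in Cre-negative 1 beside the mesothelial gene Upk3b (right); lines join the points of 1 gene and the libraries have no order. Kdr and Emcn, drawn in both panels as examples of scarce genes and chosen after their values were seen, lie under 1 CPM in every library, too low to show whether they were steady.

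Blood vessel and lymphatic genes were also set against the pan-endothelial genes of the same library, as a difference of mean log2 CPM (prior count 2). For blood vessel genes this difference was 0.65, 0.16 and 0.20 against -0.67 and 0.35, so Cre-positive 1 was lowest. When Fli1 and S1pr1 were taken out of that mean, the Cre-positive values became -0.07 and 0.53 and the Cre-negative values 0.68, -0.08 and 0.24. Without those 2 genes Cre-positive 1 lay at the low end of the Cre-negative range. They were chosen after seeing that they were high in Cre-positive 1, so the rise of that library follows from the choice. Lymphatic genes stood 1.08, 0.78 and 1.08 above the full mean against 0.38 and 0.84, and 1.11, 0.54 and 1.11 against 0.99 and 1.02 above the reduced one. Directly against each other, lymphatic minus blood vessel means were 0.43, 0.62 and 0.87 against 1.06 and 0.49. The groups overlapped, and the difference between them was smaller than the spread between mice. These differences are not corrected for exon length and serve only to compare libraries.

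Ligands, receptors and regulators that act on endothelium, many of which other cells also make, did not pass the test either. Of 48 such genes listed, 36 had rows and 31 passed the filter, and edgeR called 0 of 31 higher and 0 lower, with 0 at an unadjusted p under 0.05. DESeq2 and limma-voom also called 0. The median log2 fold change was -0.21, with 8 positive and 23 negative, beside a median of -0.04 and 54.5% negative over all genes tested. The groups did not overlap for 5 of the 31, all lower in Cre-positive mice. Over all genes tested this share was 18.0% (7.89% higher and 10.2% lower). Vegfa, the main growth factor for blood vessels, had 62.1, 80.6 and 61.4 CPM against 43.5 and 60.0 CPM, a log2 fold change of -0.39 ± 0.25. Its groups were separated by a margin smaller than the spread within either group. Slit2, a guidance ligand of Robo receptors, had 40.5, 23.7 and 19.7 CPM against 15.3 and 17.6 CPM, with a log2 fold change of -0.76 ± 0.36. Nr2f2, the transcription factor of venous identity, had a log2 fold change of -0.50 ± 0.32, also with groups that did not overlap. Nrp2, a co-receptor for VEGF-C, had a log2 fold change of -0.63 ± 0.41, and Itga9, the integrin of lymphatic valves, one of -0.69 ± 0.53. Without Cre-negative 1 these were -0.17 and -0.0032, and that of Slit2 was -0.37. Without Cre-positive 1 that of Vegfa was -0.15, and without Cre-negative 2 that of Nr2f2 was -0.26. On the positive side were the flow-responsive factor Klf2 at 0.98 ± 0.59, Tgfb1 at 1.52 ± 0.99, Foxc1 at 0.45 ± 0.54, the BMP receptor Acvrl1 at 0.39 ± 0.54 and Angpt2, the antagonist ligand of Tek, at 0.25 ± 0.60. Tgfb1 had 5.03, 0.556 and 1.14 CPM against 10.6 and 1.87 CPM, and without Cre-positive 1 its log2 fold change was -0.15 and that of Klf2 was 0.13.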

How the data were processed

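Small intestine RNA of 5 mice was depleted of ribosomal RNA and sequenced, as the labels' protocols state. The authors deposited estimated counts per gene symbol, mostly whole numbers, not scaled to library size. Partek and mm10 are named in the submitters' processing notes; for the aligner, annotation, counting rule and strand the sources used here give nothing. Estimated counts were rounded to whole numbers. All value columns were mapped to mice by their names.

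The test was edgeR 4.0.16 (R 4.3.3) with TMM factors, filterByExpr (minimum count 10), a robust quasi-likelihood fit on genotype and Benjamini-Hochberg adjustment over all 14352 genes that passed, at 0.05. The SE equals the absolute log2 fold change over the root of F. The fit leaves 3 residual degrees of freedom per gene, to which the test adds prior ones estimated over all genes. The filter can be met by the 2 Cre-positive libraries alone. The fit was tested on simulated data. P-values set the group difference against the spread between these mice, which is estimated in part from all genes. DESeq2 1.42.0, limma-voom (limma 3.58.1), 3 other scalings, other filters and leaving out each mouse were the alternatives. The members, the gene lists and the classes were chosen with earlier results of these data known. All 35 genes were to be named, with 5 partner genes in each direction by smallest unadjusted p where mean log2 CPM reached 1. The fit without a filter for Fli1, S1pr1 and Reln, the reference without Fli1 and S1pr1, the medians over the same genes and the sums without the leading gene were added after seeing the data. Exon lengths came from GENCODE M21 on GRCm38, which mm10 denotes, for 18923 symbols (98.6%). Promoters came from RefSeq.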

Additional observations from a re-analysis of the deposited data

How the results depend on the processing

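No endothelial gene and no partner gene was called under any alternative, which were 3 scalings, DESeq2, limma-voom, no filter, quasi-likelihood fitting that was not robust, a filter of 5 CPM in 2 libraries, a threshold of 0.1 and each mouse left out of the filtered table, with 1 exception for Fli1 given next. Over all genes tested DESeq2 called 19 genes, and leaving out 1 mouse gave 0 to 58 genes, the highest without Cre-positive 2, where the lone Cre-positive library is assumed to vary like the others. In the fit without a filter Fli1 passed without Cre-positive 2 (3.17, adjusted p = 0.0448), and without each mouse in turn it ranged from 0.26 to 3.17. Of 196 fold changes of 27 genes with all mice kept, 6 changed sign. Vwf had 0.0212 with RLE, 0.0099 with upper-quartile scaling, 0.0443 with total counts, 0.0256 with DESeq2 and 0.0312 with no filter, against -0.01, and Adgrl4 had 0.58 with limma-voom. Of 131 with 1 mouse left out, 22 changed sign, in 16 genes. Their ranges were -1.25 to 1.53 for Pecam1, -1.09 to 1.5 for Tie1, -1.56 to 0.81 for Vwf, -1.10 to 0.33 for Cd34, -0.68 to 0.18 for Podxl, -0.41 to 0.46 for Ptprb, -1.36 to 0.17 for Esam, -0.61 to 0.42 for Adgrl4, -1.72 to 0.29 for Flt4, -0.0360 to 1.06 for Prox1, -1.07 to 0.0144 for Pdpn and -1.47 to 2.39 for Reln. Among partners they were -0.15 to 2.36 for Tgfb1, -0.0869 to 1.09 for Foxc1, -0.12 to 0.85 for Acvrl1 and -0.48 to 0.79 for Angpt2. Egfl7 kept its direction, from -0.97 to -0.56, as did Lyve1, from -0.56 to -0.11, Eng, from -1.57 to -0.13, S1pr1, from 0.25 to 3.82, Klf2, from 0.13 to 1.58, Slit2, from -0.92 to -0.37, Nrp2, from -0.85 to -0.17, and Itga9, from -0.92 to -0.0032. Median log2 fold changes with 1 mouse left out ran from -1.09 to 1.52 for pan-endothelial, -0.77 to 0.18 for blood vessel and -0.65 to 0.64 for lymphatic genes, but the genes that passed the filter changed too (2 to 6, 7 to 8 and 3 to 6 genes). Over the same genes, a comparison chosen after seeing the data, they ran from -1.08 to 1.51, -0.68 to 0.17 and -0.64 to 0.15. With at least 5 CPM in 2 libraries 1 pan-endothelial gene was left and the median was -0.84. Against pan-endothelial genes without Fli1 and S1pr1, the lymphatic difference between the groups was 0.0835, against -0.37 with them. The causes were not tested. No paired analysis was possible because the labels give the groups no shared replicate numbers. Depth limits the 14 genes that did not pass the filter, for which no test was made over the filtered table.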
